A study of Mus musculus with 12 samples.

Results

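The genes described here encode the parts of the mitochondrial respiratory chain and the ATP synthase that are made from nuclear DNA. They were taken as the autosomal protein-coding genes of mm10 whose symbols start with Ndufa, Ndufb, Ndufc, Ndufs or Ndufv (complex I), Sdh (complex II), Uqcr (complex III), Cox4, Cox5, Cox6, Cox7 or Cox8 (complex IV) or Atp5 (complex V). This gave 97 genes, of which 88 had at least 1 deposited interval of acetylated histone H3 lysine 27 (H3K27ac) within 2 kb of the gene span, 186 intervals out of 166517 in all. Prefixes do not follow function exactly. The symbols starting with Ndufaf or Sdhaf are assembly factors that are not part of the finished enzyme, and Ndufa4, now counted as a complex IV subunit, stands here under complex I.

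H3K27ac marks enhancers and promoters in use. It was profiled by CUT&RUN, in which an antibody directs a nuclease to cut out and release the marked chromatin for sequencing. The material was mouse intestinal organoids, grown from crypts in Matrigel with EGF, Noggin, R-spondin and the GSK3 inhibitor CHIR-99021, so that in every group the Wnt pathway was stimulated. There were 12 libraries in 6 groups of 2: wild type (WT) with vehicle, WT with arachidonic acid (AA, 25 µM), WT with prostaglandin E2 (PGE2, 50 nM), and organoids labelled Ptger4 knockout (KO) with the same 3 treatments. Ptger4 encodes EP4, a receptor for PGE2, and AA is the fatty acid from which PGE2 is made. The design text names the PGE2 agent as a dimethyl analogue, and the treatment time is day 3 in one label and day 6 in another. The labels give neither the age of the animals nor the means by which Ptger4 was deleted, and nothing in them ties the 2 libraries of a group to different cultures or animals. The p-values therefore measure the spread between these libraries only, which may be technical.

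Complexes I to IV pass electrons from NADH and succinate to oxygen. Complexes I, III and IV pump protons across the inner mitochondrial membrane, and complex V uses the proton gradient to make ATP. Most subunits are encoded in the nucleus, while a few of the most hydrophobic ones come from mitochondrial DNA, so the output of both genomes has to be matched. The promoters of the nuclear genes are known for sites of NRF1, of ETS factors such as GABP (the factor first named NRF2), of YY1 and of the ERR receptors that work with the coactivator PGC-1. In the intestine the demand for oxidative phosphorylation differs between stem cells at the crypt base and the cells that leave the crypt.

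The promoters below show the sequences behind the results, each 300 bases long, from 250 bases before to 50 after the annotated start, 5′ to 3′ on the gene's strand (RefSeq, GRCm38.p6, the same build as mm10). Capitals mark exact matches, on either strand, to 7 motifs: NRF1 (GCGCATGC), ETS (CCGGAAG), YY1 (AAGATGGCG), CREB (TGACGTCA), ERR (TCAAGGTCA), SP1 (GGGCGG) and NFY (CCAAT). The first 6 belong to genes named below in the genotype comparison or among the highest levels of a complex. No member interval passed that comparison with all 12 libraries. Ndufb5 is on the plus strand at chr3:32736813-32737112, Ndufs4 on the minus strand at chr13:114388045-114388344, and Uqcrc1 on the plus strand at chr9:108936398-108936697. Atp5pb is on the minus strand at chr3:105959214-105959513, Uqcrh on the minus strand at chr4:116075021-116075320, and Ndufs3 on the minus strand at chr2:90904672-90904971.
Ndufb5: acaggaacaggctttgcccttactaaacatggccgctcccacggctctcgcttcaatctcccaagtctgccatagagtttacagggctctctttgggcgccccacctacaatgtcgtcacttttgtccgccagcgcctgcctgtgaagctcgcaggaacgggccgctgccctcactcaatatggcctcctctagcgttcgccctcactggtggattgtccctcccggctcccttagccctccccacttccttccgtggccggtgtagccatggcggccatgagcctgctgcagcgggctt
Ndufs4: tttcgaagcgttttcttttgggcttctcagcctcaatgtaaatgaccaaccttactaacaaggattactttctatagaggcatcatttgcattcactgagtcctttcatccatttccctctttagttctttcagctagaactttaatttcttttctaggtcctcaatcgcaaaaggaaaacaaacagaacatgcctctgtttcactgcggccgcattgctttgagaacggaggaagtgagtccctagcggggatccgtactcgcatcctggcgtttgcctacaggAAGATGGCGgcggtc
Uqcrc1: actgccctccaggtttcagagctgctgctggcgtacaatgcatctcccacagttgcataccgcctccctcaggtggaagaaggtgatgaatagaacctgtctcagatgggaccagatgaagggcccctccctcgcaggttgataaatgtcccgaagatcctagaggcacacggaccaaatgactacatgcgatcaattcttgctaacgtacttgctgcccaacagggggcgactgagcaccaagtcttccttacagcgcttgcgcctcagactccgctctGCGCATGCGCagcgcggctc
Atp5pb: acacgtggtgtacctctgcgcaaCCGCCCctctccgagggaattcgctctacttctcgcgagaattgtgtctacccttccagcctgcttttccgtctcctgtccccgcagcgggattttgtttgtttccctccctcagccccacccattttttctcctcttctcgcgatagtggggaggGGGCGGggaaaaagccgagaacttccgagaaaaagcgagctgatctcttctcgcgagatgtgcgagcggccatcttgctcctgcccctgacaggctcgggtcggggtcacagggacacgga
Uqcrh: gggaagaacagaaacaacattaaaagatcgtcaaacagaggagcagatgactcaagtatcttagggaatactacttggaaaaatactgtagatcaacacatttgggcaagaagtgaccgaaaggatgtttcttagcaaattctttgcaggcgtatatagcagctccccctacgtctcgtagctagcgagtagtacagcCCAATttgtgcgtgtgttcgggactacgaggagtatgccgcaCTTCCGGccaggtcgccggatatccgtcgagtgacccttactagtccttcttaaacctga
Ndufs3: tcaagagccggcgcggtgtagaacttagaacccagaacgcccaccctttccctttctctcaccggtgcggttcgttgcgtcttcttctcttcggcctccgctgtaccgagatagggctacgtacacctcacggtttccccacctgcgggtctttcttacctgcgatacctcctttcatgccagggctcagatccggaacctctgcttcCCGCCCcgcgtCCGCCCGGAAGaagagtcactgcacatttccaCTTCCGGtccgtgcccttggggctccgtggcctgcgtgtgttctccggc

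The next 4 promoters pair a widely expressed complex IV isoform with its tissue-restricted partner, because of the restricted partners Cox6b2 had no interval and Cox8b the lowest lead score. All 4 lie on the minus strand: Cox8a at chr19:7217567-7217866, Cox8b at chr7:140900397-140900696, Cox6b1 at chr7:30626065-30626364 and Cox6b2 at chr7:4753045-4753344. Cox8b is the heart and skeletal muscle isoform of subunit VIII, and Cox6b2 is the testis isoform of subunit VIb.
Cox8a: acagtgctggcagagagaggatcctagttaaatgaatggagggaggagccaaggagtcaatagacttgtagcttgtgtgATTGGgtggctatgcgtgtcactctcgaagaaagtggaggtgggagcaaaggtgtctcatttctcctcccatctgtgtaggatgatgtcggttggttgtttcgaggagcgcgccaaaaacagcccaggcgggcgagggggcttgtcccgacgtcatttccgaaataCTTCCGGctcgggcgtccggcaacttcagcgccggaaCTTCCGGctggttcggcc
Cox8b: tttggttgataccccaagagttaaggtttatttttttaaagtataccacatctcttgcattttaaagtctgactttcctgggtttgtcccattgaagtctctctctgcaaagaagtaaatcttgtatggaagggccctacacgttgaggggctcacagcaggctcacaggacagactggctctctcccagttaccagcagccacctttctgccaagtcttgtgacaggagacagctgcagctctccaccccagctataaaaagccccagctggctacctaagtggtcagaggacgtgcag
Cox6b1: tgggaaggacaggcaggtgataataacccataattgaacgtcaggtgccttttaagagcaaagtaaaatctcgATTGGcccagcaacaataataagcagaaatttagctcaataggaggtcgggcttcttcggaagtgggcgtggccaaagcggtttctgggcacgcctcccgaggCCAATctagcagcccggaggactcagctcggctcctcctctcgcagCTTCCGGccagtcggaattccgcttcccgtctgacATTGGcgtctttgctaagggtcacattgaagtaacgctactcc
Cox6b2: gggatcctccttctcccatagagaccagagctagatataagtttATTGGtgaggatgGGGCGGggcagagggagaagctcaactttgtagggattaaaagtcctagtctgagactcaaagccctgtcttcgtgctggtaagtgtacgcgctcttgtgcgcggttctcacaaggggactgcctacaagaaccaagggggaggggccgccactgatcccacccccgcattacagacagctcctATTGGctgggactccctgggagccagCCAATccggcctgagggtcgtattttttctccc

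Among the printed promoters, Uqcrc1 carries an NRF1 palindrome starting 31 bases after the start, Ndufs4 a YY1 site 36 bases after it, and Uqcrh, Ndufs3, Cox8a and Cox6b1 ETS letters within 50 bases of it. Ndufb5 and Cox8b hold none of the 7 motifs. The Cox8b promoter has 2 CpG dinucleotides and that of Cox6b2 has 10, against 19 for Cox8a and 17 for Cox6b1. A match to the letters describes the sequence and does not show that a factor binds there.

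Of the 97 genes, 79 matched the promoter table, with 84 promoters. NRF1 letters were in 14.3% of them, against 3.55% of the 20085 promoters of all autosomal protein-coding genes. ETS letters were in 26.2% against 11.9%, and YY1 letters in 9.52% against 1.83%. Promoters with SP1 letters (46.4% against 47.0%) and NFY letters (40.5% against 38.1%) were about as common among these genes as among all. The 12 genes with NRF1 letters came from every complex: Ndufa6, Ndufa8, Ndufa11, Ndufaf4, Ndufaf5, Sdhb, Uqcr11, Uqcrc1, Cox6a1, Atp5g2, Atp5k and Atp5l.

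YY1 letters occurred in 8 genes, Ndufa9, Ndufaf8, Ndufc1, Ndufs4, Ndufs6, Ndufs7, Atp5j and Atp5j2, always on the sense strand. In 7 of the 8 the match began between 11 and 36 bases after the start, and only the match in Atp5j lay before it, at 88 bases. The letters hold an ATG, and whether these sites span a start codon was not examined. CREB letters were in 4 promoters (Ndufa10, Ndufa11, Ndufb2 and Uqcrfs1; 4.76% against 2.30%), and ERR letters were in 2 (Atp5g3 and Sdhd; 2.38% against 0.339%). The median promoter had 20 CpG dinucleotides, against 14 over all promoters. The letters of NRF1, ETS, YY1, CREB and SP1 all contain CpG, so their shares are not independent of the CpG count.

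H3K27ac intervals were found at more of these genes than at protein-coding genes at large, although the genes are short. Of the 97 genes 90.7% had an interval, against 80.2% of the 20665 autosomal protein-coding genes, and the median gene was 7495 bp long against 17491 bp. Among genes of at most 10 kb the shares were 59 of 66 (89.4%) and 59.9% of 7343. The median number of intervals per gene with any was 2, against 3 over all genes. The long gene Ndufs4 (100300 bp), which encodes a complex I subunit mutated in Leigh syndrome, had the most, 16.

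Most of these genes had a start inside an interval, although only 73 of the 186 intervals held one and 64 lay in gene bodies, over 2 kb from either end of the gene. Of the 79 genes with a promoter entry 73 (92.4%) had an annotated start inside an interval, against 50.6% of 16457 genes. Each gene was then represented by its lead interval, the one with the highest mean score over the 12 libraries. The lead interval held a start in 62 of the 75 genes with both (82.7%), against 44.6% over all genes. For 49 of the 88 genes the lead interval was also within 2 kb of another protein-coding gene, so its signal cannot be assigned to one of them: the interval of Atp5j, for example, is shared with Gabpa, the gene of the DNA-binding GABP subunit.

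The 9 genes with no interval were mostly the isoforms that other tissues use. Of 8 isoforms of restricted expression, 7 had none: Ndufa4l2, Cox4i2, Cox6a2, Cox6b2, Cox7a1, Cox7b2 and Cox8c. Cox7b2 had none although its gene spans 105383 bp. The remaining 2 genes without an interval were Ndufb4b and Ndufb4c, loci of 471 and 485 bp.

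By contrast all 7 widely expressed isoforms had an interval. Their mean lead scores were 0.219 for Cox7a2l, 0.219 for Ndufa4, 0.187 for Cox8a, 0.167 for Cox7a2, 0.156 for Cox4i1, 0.133 for Cox6b1 and 0.123 for Cox6a1. The score is a signal value per interval and library; its normalization is not given in the sources used here and the sequencing depth is unknown. The 8th restricted isoform, Cox8b, had the lowest lead score of all 88 genes, 0.0840 ± 0.0262 (SD, n = 12), at the 4.3 percentile of all genes. Its interval ends 30 bp short of the annotated start and is shared with the neighbour Psmd13. Over the 4 restricted isoforms with a promoter entry, promoters held 2 to 10 CpG dinucleotides and no NRF1, ETS or YY1 letters.

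The labelled tissue was checked with markers. All 8 epithelial markers had an interval (Epcam, Cdh1, Krt8, Krt18, Krt19, Vil1, Cdx1 and Cdx2; mean lead scores 0.179 to 0.251). No interval was found at the muscle genes Myh6, Ckm and Des, the fibroblast genes Col1a2 and Col3a1 or the endothelial gene Kdr. Of the marker lists for other cells, 2 of 5 muscle genes had an interval (Actn2 0.109 and Myh7 0.0688), 3 of 5 fibroblast genes (0.0932 to 0.136), 4 of 4 immune genes (0.0962 to 0.175) and 2 of 3 endothelial genes (0.0847 and 0.173). Slc25a4, the heart and muscle ADP/ATP carrier on the list of other mitochondrial genes, had none either.

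**Figure D1:**
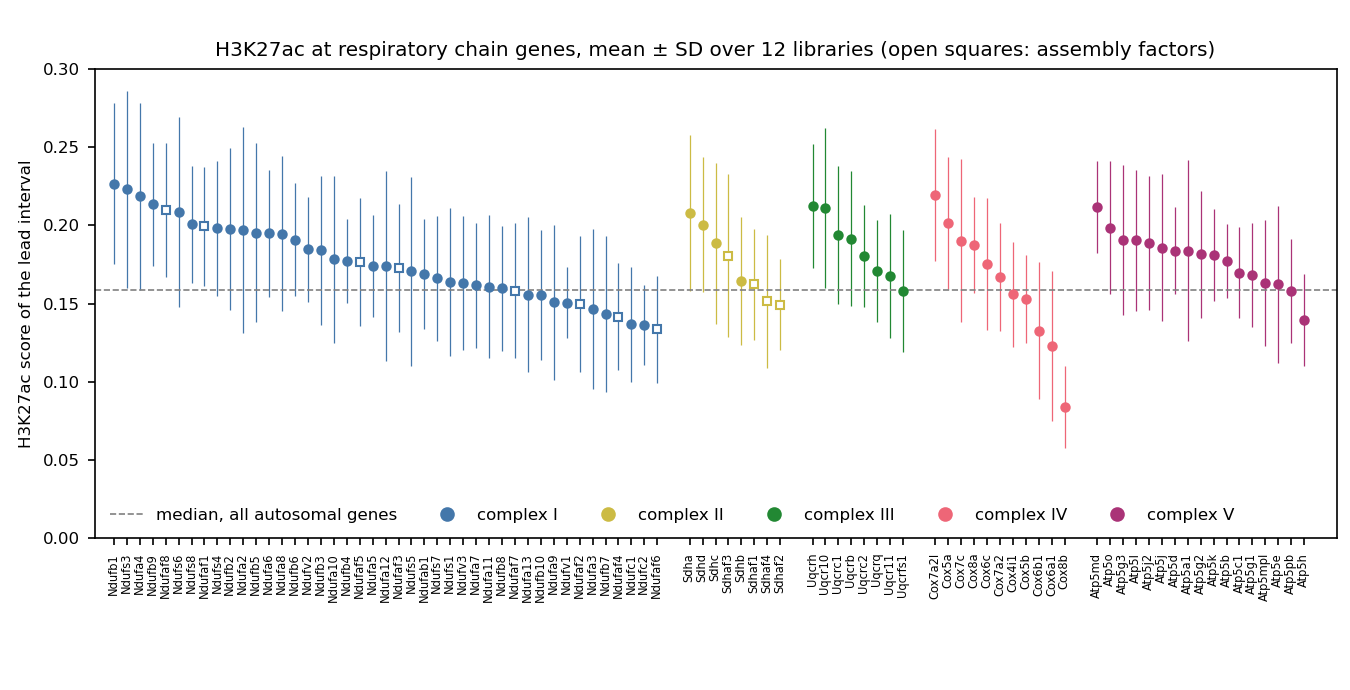
H3K27ac score of the lead interval (y axis, the deposited signal score, linear from 0) of 87 of the 88 genes with an interval, grouped and coloured by complex and ordered by level. Points are means and bars SD over 12 libraries, open squares are assembly factors, and the dashed line is the median over all autosomal genes (0.159). Cox8b stands lowest at 0.0840 and Ndufb1 highest at 0.227.

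Levels were even across the chain. The median lead score was 0.176 over the 88 genes, against 0.159 over the lead intervals of all autosomal protein-coding genes. By complex the medians were 0.173 for complex I (44 genes), 0.173 for complex II (8), 0.186 for complex III (8), 0.167 for complex IV (11) and 0.182 for complex V (17). The quartiles of the complexes overlapped (for complex I 0.158 to 0.196, for complex III 0.170 to 0.198).

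At starts and in gene bodies the difference in level was small, and near gene ends it was larger. At intervals that hold a start the median was 0.171 over 73 member intervals and 0.162 over 7861 intervals of all genes, and in gene bodies it was 0.116 against 0.117. Within 2 kb of either gene end, starts included, it was 0.163 over 122 member intervals and 0.137 over 20318 intervals of all genes. The 12 assembly factors had a median of 0.160 and the 76 subunits 0.178. The 17 genes of the catalytic core, which carry the flavin, iron-sulphur or heme centres, anchor succinate dehydrogenase or form the F1 part of the ATP synthase, had 0.177.

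In complex I the highest lead scores were at Ndufb1 (0.227 ± 0.0512, SD, n = 12), Ndufs3 (0.223 ± 0.0630) and Ndufa4 (0.219 ± 0.0599). Ndufb1 is an accessory subunit of the membrane arm, and Ndufs3 is a core subunit of the peripheral arm. The lowest were Ndufc2 (0.136 ± 0.0258), an accessory subunit, and the assembly factor Ndufaf6 (0.134 ± 0.0342). The ranges over libraries of the highest and lowest genes overlapped, 0.127 to 0.315 for Ndufb1 and 0.0963 to 0.215 for Ndufaf6. Of the redox core, Ndufs8 had 0.201, Ndufv2 0.185, Ndufs7 0.166, Ndufs1 0.164 and Ndufv1, which binds NADH and the flavin, 0.151.

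Complex II, the succinate dehydrogenase that also belongs to the citric acid cycle, was led by its flavoprotein Sdha (0.208, from 0.134 to 0.309 over the libraries) and the membrane anchors Sdhd (0.201 ± 0.0431) and Sdhc (0.188 ± 0.0513). The iron-sulphur subunit Sdhb had 0.164 ± 0.0407. Lowest stood 2 assembly factors, Sdhaf4 (0.151 ± 0.0426) and Sdhaf2 (0.149 ± 0.0291), of which Sdhaf2 helps attach the flavin to Sdha.

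In complex III the hinge protein gene Uqcrh (0.212 ± 0.0394), Uqcr10 (0.211 ± 0.0512) and Uqcrc1 (0.194 ± 0.0441) were highest. Uqcr11 (0.168 ± 0.0398) and the Rieske iron-sulphur protein Uqcrfs1 (0.158 ± 0.0388) were lowest. Complex IV was led by Cox7a2l, a factor for joining complexes into supercomplexes (0.219 ± 0.0422), Cox5a (0.202 ± 0.0424) and Cox7c (0.190 ± 0.0522), with Cox6a1 (0.123 ± 0.0478) and Cox8b at the bottom. Neighbours in these orders differ by less than their spread between libraries.

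Complex V had Atp5md (0.212 ± 0.0295), Atp5o (0.198 ± 0.0425), the stalk subunit also called OSCP, and Atp5g3 (0.191 ± 0.0481), 1 of 3 genes for the proton-carrying c subunit, at the top. Atp5pb (0.158 ± 0.0331), the b subunit of the peripheral stalk, and Atp5h (0.140 ± 0.0295), the d subunit, were lowest. The other genes for the c subunit, Atp5g2 and Atp5g1, had 0.182 and 0.168. The F1 subunits, which hold the catalytic sites and the rotor, lay between, Atp5d at 0.184, Atp5a1 at 0.184, Atp5b at 0.177, Atp5c1 at 0.170 and Atp5e at 0.162.

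**Figure D2:**
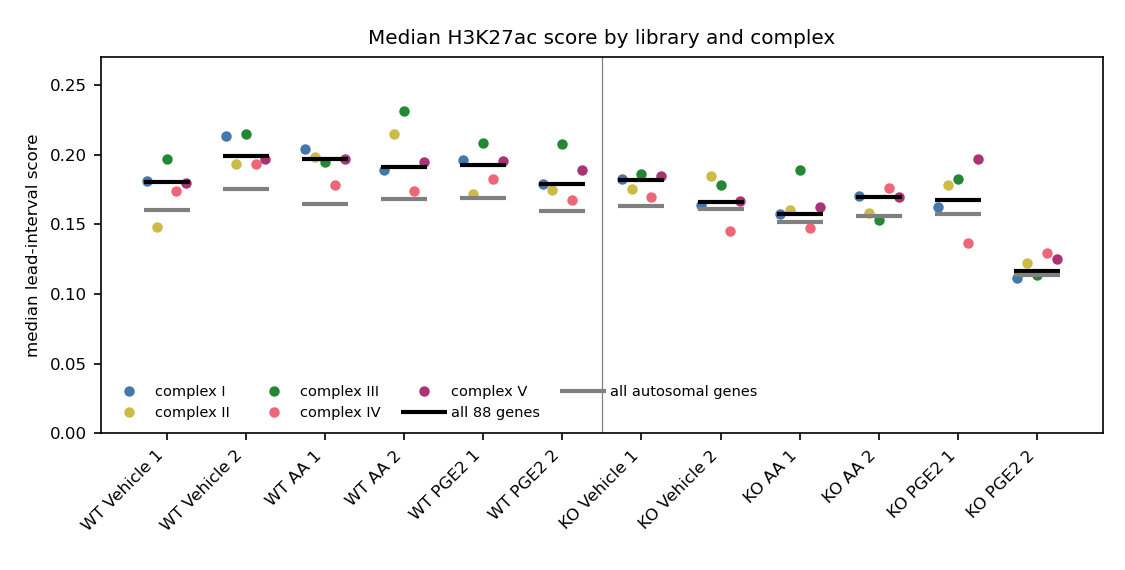
Median lead-interval score (y axis, deposited signal score, linear from 0) in each of the 12 libraries (x axis) for the 5 complexes (coloured points), all 88 genes (black bar) and all autosomal protein-coding genes (grey bar). The second KO library with PGE2 is lowest, 0.116 for the 88 genes and 0.113 for all genes.

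Library medians over the 88 genes were 0.180 and 0.199 in WT vehicle, 0.197 and 0.191 in WT AA, and 0.193 and 0.179 in WT PGE2. In the KO they were 0.182 and 0.166 with vehicle, 0.157 and 0.169 with AA, and 0.167 and 0.116 with PGE2. The KO vehicle value of 0.182 lies within the WT range, and the other 5 KO libraries lie below every WT library. Over all autosomal genes the KO medians were 0.163 and 0.161 with vehicle, 0.152 and 0.156 with AA, and 0.158 and 0.113 with PGE2. Those of WT ranged from 0.160 to 0.175. One library stands apart, the second KO PGE2 replicate, in which the median over all autosomal genes was also low (0.113, against 0.152 to 0.175 in the other 11). Genotype and PGE2 medians are given with and without it. The mean of the medians was 0.190 ± 0.00846 (SD, n = 6) in WT, 0.160 ± 0.0227 (n = 6) in KO, and 0.168 ± 0.00890 (n = 5) in KO without that library. For all autosomal genes these means were 0.166 ± 0.00581 in WT, 0.150 ± 0.0186 in KO and 0.158 ± 0.00448 in KO without it.

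The genotype comparison asks whether loss of the PGE2 receptor EP4 goes with a change of the mark, averaged over the 3 treatments. At Ptger4 itself the lead interval scored 0.198 ± 0.0307 in WT and 0.161 ± 0.0693 in KO (SD, n = 6 each; log2 difference -0.26 ± 0.15, SE, adjusted p = 0.618, limma). Acetylation does not check a deletion.

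Respiratory chain genes carried less H3K27ac in the KO libraries, but no interval passed the test. Of the 186 member intervals 0 passed in limma at an adjusted p of 0.05, with 0.0427% of all 166471 tested intervals passing (71). At an unadjusted p under 0.05, 32 member intervals (17.2%) were lower, against 6.82% of all intervals, and 2 (1.08%) were higher, against 2.28%. Without the mean-variance trend in limma 21 were lower at that level, again with 0 passing. With the trend, 29.5% of member lead intervals were lower at that level, against 16.5% of the lead intervals of all genes. Of member intervals that hold a start 28.8% were, against 18.4% of all such intervals. Fewer cells with the mark and less mark per cell cannot be told apart in such bulk material.

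Of the 88 lead intervals 81 were lower in KO, with a median log2 difference of -0.20. Over all genes 73.2% of lead intervals were lower, with a median of -0.12. Intervals that hold a start were lower for 67 of 73 members (median -0.21) and for 79.7% of all such intervals (median -0.14). Within 2 kb of either gene end, starts included, 100 of 122 member intervals were lower (median -0.18), against 69.3% of all such intervals (median -0.10). In gene bodies 30 of 64 were lower (median 0.02), against 56.7% (median -0.04). The difference between positions was not tested. These shares are descriptions of the lists, since every gene was measured in the same 12 libraries.

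Part of the difference came with 1 library. Without the second KO PGE2 library 71 of 88 lead intervals were lower, with a median of -0.13 against -0.07 for all genes (63.8% lower). The member intervals that hold a start then had a median of -0.13 (all such intervals -0.08), those near gene ends -0.12 (-0.06) and those in gene bodies 0.02 (-0.01). Under quantile normalization, which gives every library the same distribution of values, 68 were lower, with medians of -0.13 and -0.06, and 62.8% of all genes were lower in place of 73.2%. After centring each library on its median 76 were lower, with -0.17 and -0.09. The members stayed 0.06 to 0.08 below all genes in these settings.

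Leaving out the first KO PGE2 library had the opposite effect, since the low library then stood alone for its group. 5 member intervals passed (0.89% of all intervals did): Uqcr10, Ndufb5, Atp5l, Ndufa2 and Ndufb1, all lower, with adjusted p from 0.0203 to 0.0453 in limma. The lone library is assumed there to vary like the other groups.

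The median log2 difference was -0.22 in complex I (40 of 44 genes lower), -0.19 in complex II (8 of 8), -0.27 in complex III (8 of 8), -0.15 in complex IV (10 of 11) and -0.13 in complex V (15 of 17). It was -0.21 over subunits, -0.20 over assembly factors and -0.15 over the catalytic core. Without the second KO PGE2 library the medians were -0.18 in complex I (36 lower), -0.08 in complex II (6), -0.16 in complex III (7), -0.16 in complex IV (9) and -0.05 in complex V (13), with -0.13 over subunits, -0.09 over assembly factors and -0.08 over the catalytic core. All of these medians are below 0, as is that of all genes in both settings. The difference between complexes was not tested.

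**Figure D3:**
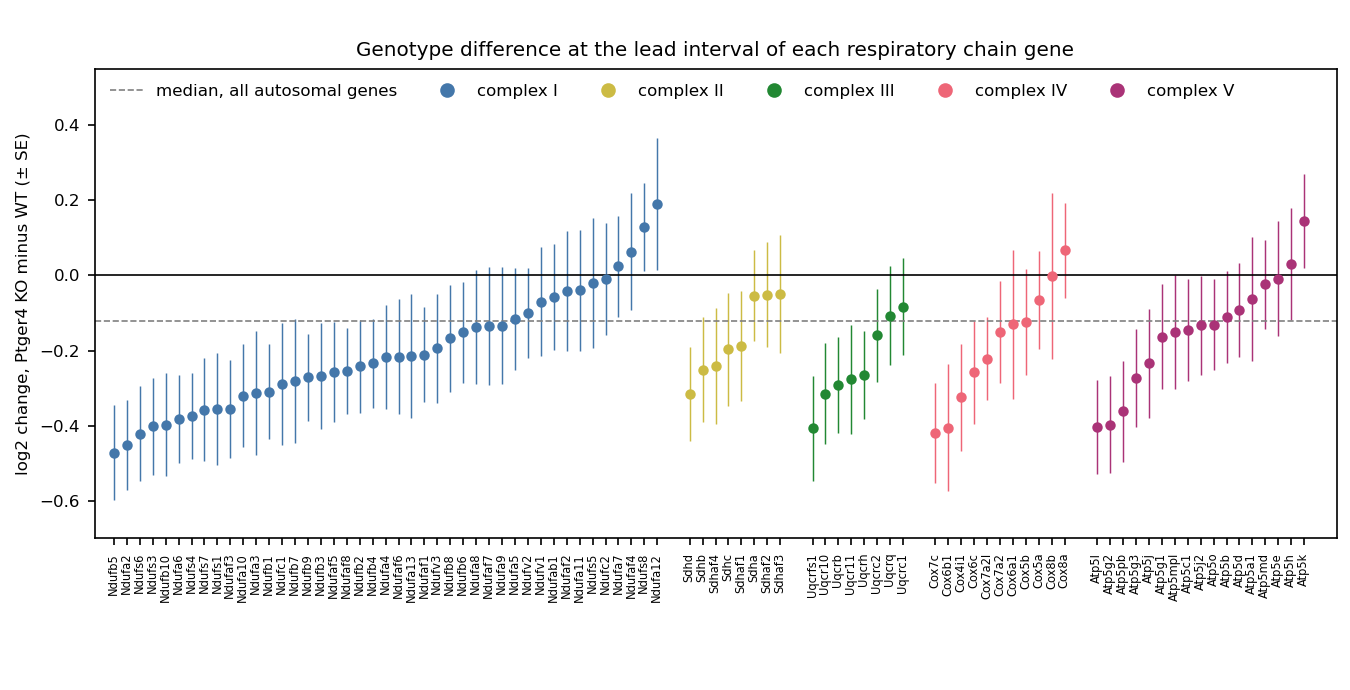
Log2 difference of the lead interval between KO and WT (y axis, log2 of score plus 0.0579, KO minus WT over all treatments) for 87 of the 88 genes, by complex. Points are limma estimates and bars SE, the solid line is 0 and the dashed line the median over all autosomal genes (-0.12). Values are below 0 for 80 of the 87 genes drawn and none passes the adjusted threshold.

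The smallest p-values among the member intervals belonged to Ndufa2, Ndufb5 and Uqcrc1. Ndufa2, a small accessory subunit of complex I, scored 0.204 and 0.223 in WT vehicle, 0.202 and 0.202 in WT AA and 0.288 and 0.273 in WT PGE2. Its KO values were 0.242 and 0.258 with vehicle, 0.157 and 0.0948 with AA and 0.119 and 0.101 with PGE2. The KO vehicle libraries were thus above most WT ones, and only the 4 treated KO libraries were below all of them. Its genotype difference was -0.45 ± 0.12 (SE, adjusted p = 0.197, limma).

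Ndufb5, an accessory subunit of the membrane arm of complex I, was low in all 3 KO groups. Its lead interval, chr3:32735838-32738846, holds its start and is shared with Mrpl47, a mitochondrial ribosomal protein gene. The WT values were 0.221 and 0.323 (vehicle), 0.254 and 0.228 (AA) and 0.186 and 0.208 (PGE2), and the KO values 0.126 and 0.194, 0.152 and 0.174, and 0.161 and 0.117. The genotypes overlapped only by 1 KO vehicle library above 1 WT PGE2 library, and the difference was -0.47 ± 0.13 (SE, adjusted p = 0.202, limma).

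Uqcrc1, a core protein of complex III, had its lower values at the start (chr9:108935810-108937695), in the interval that holds the promoter with the NRF1 palindrome shown above. There WT scored 0.231 and 0.138 (vehicle), 0.170 and 0.212 (AA) and 0.207 and 0.232 (PGE2), and KO 0.161 and 0.164, 0.0861 and 0.129, and 0.0747 and 0.111. The genotypes overlapped through the WT vehicle library at 0.138, and the difference was -0.53 ± 0.15 (SE, adjusted p = 0.215, limma). The stronger interval before the gene (chr9:108933687-108935001), its lead, differed by -0.08 ± 0.13 (adjusted p = 0.891).

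In 2 of the 186 member intervals (1.08%) every KO library was below every WT library, against 0.559% of all intervals. These were the lead intervals of Ndufs4 and Atp5pb. No member interval had all KO libraries above all WT ones (0.125% of all intervals did).

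At the Ndufs4 start (chr13:114386523-114388688) WT scored 0.204 and 0.234 (vehicle), 0.261 and 0.199 (AA) and 0.230 and 0.256 (PGE2), and KO 0.196 and 0.178, 0.162 and 0.198, and 0.137 and 0.124. The closest values, 0.199 and 0.198, nearly touch, and the difference was -0.37 ± 0.11 (SE, adjusted p = 0.290, limma). At Atp5pb (chr3:105956537-105962016, shared with Wdr77) WT scored 0.150 and 0.180, 0.197 and 0.177, and 0.197 and 0.209, and KO 0.141 and 0.120, 0.121 and 0.148, and 0.112 and 0.145. Again the gap was narrow, 0.150 against 0.148, and the difference was -0.36 ± 0.13 (SE, adjusted p = 0.401).

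**Figure D4:**
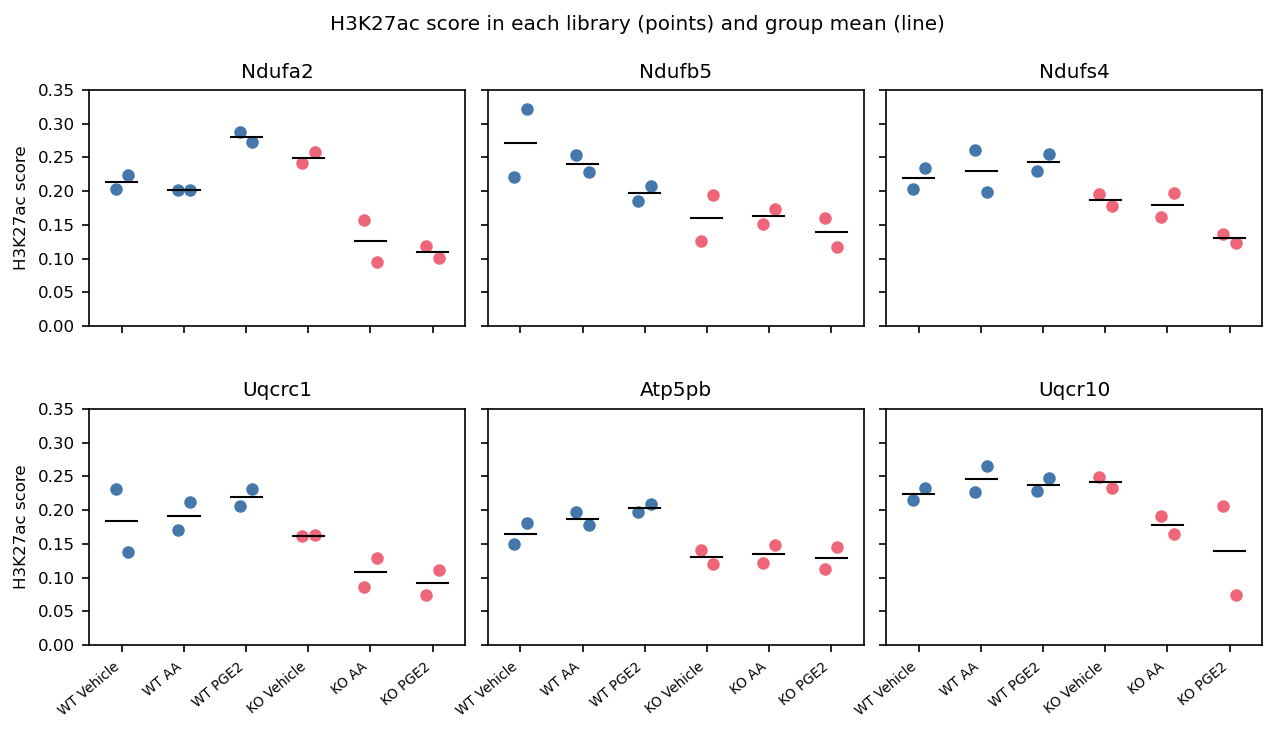
H3K27ac score (y axis, deposited signal score, linear from 0) in each library (points, WT blue, KO red) and the group mean (line) at 6 intervals, in the 6 groups of 2 libraries (x axis). For Uqcrc1 the interval at the start is drawn, for the other genes the lead interval. Ndufs4 and Atp5pb have no overlap between genotypes, and 1 KO PGE2 library of Uqcr10 lies at 0.0734.

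Other genes with low values in KO came from several complexes. The lead intervals of Ndufs6 (-0.42 ± 0.13, SE), Cox7c (-0.42 ± 0.13), Uqcrfs1 (-0.41 ± 0.14), Cox6b1 (-0.41 ± 0.17), Atp5l (-0.40 ± 0.13), Atp5g2 (-0.40 ± 0.13), Ndufs3 (-0.40 ± 0.13), Ndufb10 (-0.40 ± 0.14) and Ndufa6 (-0.38 ± 0.12) were next in size, with adjusted p from 0.275 to 0.465 in limma. Of the redox core Ndufs1 and Ndufs7 each had -0.36 and Sdhd -0.32. Sdha (-0.05 ± 0.12), Atp5a1 (-0.06 ± 0.17) and Ndufv1 (-0.07 ± 0.14) had values near 0.

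Of the 186 member intervals 56 pointed the other way. The 3 with the smallest p lay away from the starts, an interval inside Sdhaf2 (0.34 ± 0.15, SE, adjusted p = 0.503, limma), one inside Ndufa8 (0.38 ± 0.17, adjusted p = 0.525) and one at the far end of Cox7a2 (0.45 ± 0.22, adjusted p = 0.561). The Sdhaf2 interval scored 0.116 ± 0.0126 in WT and 0.165 ± 0.0359 in KO (SD, n = 6 each). Among lead intervals the largest positive values were at Ndufa12 (0.19 ± 0.18) and Atp5k (0.14 ± 0.13), about as large as their SE.

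MACS2 intervals, a second and much sparser set, lay at 3 member genes out of 702 intervals. Each is a narrow region near the start, of Ndufs3 (265 bp), Ndufaf1 (245 bp) and Ndufb2 (322 bp). At Ndufs3 the score was 0.507 ± 0.168 in WT and 0.316 ± 0.0850 in KO (SD, n = 6 each), at Ndufaf1 0.431 ± 0.210 and 0.289 ± 0.112, and at Ndufb2 0.479 ± 0.207 and 0.302 ± 0.0839. At each gene the KO mean was lower and the genotypes overlapped. These regions come from the same libraries and are no second measurement.

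The list of regulators and partners of the chain held 51 genes. Of the 49 with an interval, 39 lead intervals (79.6%) were lower in KO and 10 higher, with a median of -0.15, beside 73.2% and -0.12 over all genes. Without the second KO PGE2 library 37 were lower, with a median of -0.08 (all genes 63.8% and -0.07). None of the 49 passed in limma, and at an unadjusted p under 0.05, 10 were lower (20.4%; 16.5% of all lead intervals were) and 0 higher. The smallest p was at Ppargc1a, the gene of the coactivator PGC-1 alpha, with 0.221 ± 0.0290 in WT and 0.141 ± 0.0276 in KO (SD, n = 6 each; -0.49 ± 0.13, SE, adjusted p = 0.192). Cox19, a copper-handling factor for complex IV, had -0.47 ± 0.13 (adjusted p = 0.215, limma). Tfam, which packages mitochondrial DNA and takes part in its transcription, had -0.35 ± 0.12 (adjusted p = 0.372, limma). Nrf1 itself (0.13 ± 0.15), Gabpa (-0.23 ± 0.15) and Esrra (-0.14 ± 0.13) had smaller values.

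With all 12 libraries in the fit, none of the 8 epithelial markers passed in the genotype comparison. All 8 had values below 0, from -0.27 at Cdx1 to -0.55 at Cdx2 (adjusted p = 0.0520 for Cdx2, limma), with a median of -0.30, where 73.2% of all lead intervals were lower. Without the second KO PGE2 library they ranged from -0.16 to -0.50, with Cdx2, a homeobox factor of the intestinal epithelium, at -0.50 ± 0.10 (SE). That fit leaves the KO PGE2 group without a replicate, so only sizes are given, and the statement on passing does not extend to it. The library median of the list ranged from 0.191 to 0.286 in WT and from 0.126 to 0.221 in KO.

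No marker of another cell type passed with all 12 libraries either. Of the 4 immune markers 2 had positive values, Cd3e (0.42 ± 0.19, SE, adjusted p = 0.531, limma) and Ptprc (0.34 ± 0.19), and 2 negative ones. The fibroblast markers ranged from -0.35 to 0.11, and the endothelial and muscle markers from -0.16 to -0.09. Library medians ranged from 0.0822 to 0.133 in WT and 0.0812 to 0.178 in KO for the immune list, and from 0.0739 to 0.132 and 0.0823 to 0.149 for the fibroblast list. For the endothelial list they ranged from 0.0962 to 0.236 and 0.0898 to 0.151, and for the muscle list from 0.0461 to 0.176 and 0.0561 to 0.112. The part of cell composition in the respiratory chain result was not tested.

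The median KO minus WT difference over the 88 genes was -0.10 with vehicle (61 lower; all genes -0.04), -0.23 with AA (69 lower; -0.11) and -0.35 with PGE2 (77 lower; -0.23). With vehicle the median ranged from -0.17 to -0.0046 when 1 of the 4 libraries was left out, the last without the second WT vehicle library (45 lower). With AA it ranged from -0.25 to -0.20. With PGE2 it was -0.12 without the second KO library (59 lower; all genes -0.06) and -0.52 without the first (83 lower; -0.40). The 3 values are therefore not ranked here. The interaction terms below test a change with treatment at single intervals only, and the change of the median over genes was not tested.

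**Figure D5:**
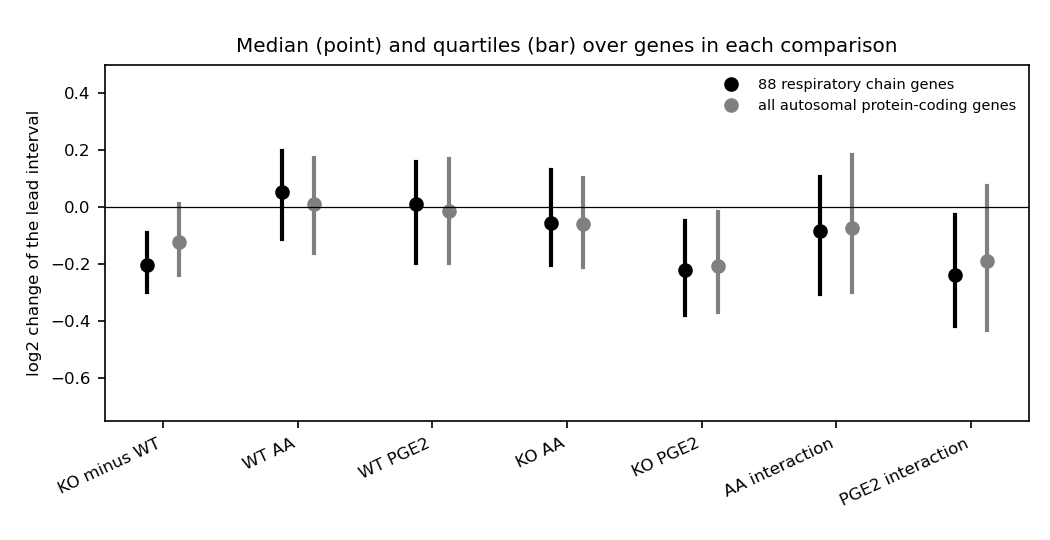
Median (points) and quartiles (bars) of the log2 difference of lead intervals (y axis) over the 88 genes (black) and all autosomal protein-coding genes (grey) in the 7 comparisons (x axis). In KO PGE2 both medians are near -0.2 (-0.22 and -0.20), and in WT AA they are 0.05 and 0.01.

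In WT organoids with arachidonic acid 0 of 186 member intervals passed against vehicle in limma (0% of all intervals). At an unadjusted p under 0.05, 4 were higher (1.84% of all) and 2 lower (2.72%). The lead intervals were higher for 50 genes and lower for 38, with a median of 0.05 against 0.01 for all genes. The sign of that median rested on the vehicle libraries. It was -0.05 without the first (54 lower; all genes -0.05) and 0.16 without the second (60 higher; 0.06), 0.03 without either AA library, and 0.10 after median centring. Atp5g3 had the smallest p of a lead interval, with 0.165 ± 0.0209 in vehicle and 0.262 ± 0.00240 in AA (SD, n = 2 each; 0.53 ± 0.23, SE, adjusted p = 1.00). Among other intervals a second one at Atp5g2 had 1.44 ± 0.46 and one inside Sdhaf3 0.63 ± 0.30. The lower side held an interval inside Ndufs4 (-0.74 ± 0.34) and the leads of Ndufa10 (-0.51 ± 0.24) and Ndufa7 (-0.46 ± 0.23).

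In WT organoids with PGE2 no member interval passed in limma (0% of all), 6 were higher (2.47% of all) and 3 lower (3.33%) at an unadjusted p under 0.05, and lead intervals were split 45 to 43, with a median of 0.01 against -0.01. Without the first vehicle library the median was -0.07 (53 lower; all genes -0.07), without the second 0.11 (54 higher; 0.04), without the first PGE2 library -0.03, without the second 0.02, and after median centring 0.04. The smallest p was at the start of Atp5d, the delta subunit of the ATP synthase central stalk, where the score was 0.265 ± 0.0141 in vehicle and 0.111 ± 0.0129 in PGE2 (SD, n = 2 each; -0.93 ± 0.26, SE, adjusted p = 0.788). Atp5e, the epsilon subunit beside it in the enzyme, had 0.215 ± 0.0251 and 0.111 ± 0.0200 (-0.70 ± 0.27, adjusted p = 0.806). A second interval of Sdhd had -0.61 ± 0.23. On the higher side stood intervals of Sdhaf3 (0.91 ± 0.30), Ndufaf5 (1.27 ± 0.46) and Ndufs1 (1.32 ± 0.49), none at an annotated start and all of low vehicle score (0.0247 to 0.0792).

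In KO organoids AA gave 0 passing intervals in limma (0% of all), 2 higher (1.73% of all) and 3 lower (2.02%) at an unadjusted p under 0.05. Lead intervals were higher for 38 genes and lower for 50, with a median of -0.06, the same as over all genes. Without the first KO AA library it was -0.03 (all genes -0.05) and without the second -0.10 (-0.07). Ndufa2 had the smallest p (0.250 ± 0.0119 with vehicle, 0.126 ± 0.0438 with AA, SD, n = 2 each; -0.77 ± 0.21, SE, adjusted p = 1.00). Intervals off the starts of Sdhaf2 (-0.97 ± 0.35) and Sdha (-0.98 ± 0.40) were also lower. Atp5o (0.53 ± 0.21), the start of Ndufs6 (0.53 ± 0.23) and an interval inside Ndufs4 (0.87 ± 0.42) were on the higher side.

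KO organoids with PGE2 had lower values at most genes, in the chain as elsewhere. No member interval passed in limma (0% of all), 12 were lower (6.85% of all) and 3 higher (1.82%) at an unadjusted p under 0.05. Lead intervals were lower for 74 of 88 genes with a median of -0.22, against 76.5% and -0.20 over all genes. Without the second KO PGE2 library 49 of 88 were lower with a median of -0.02 (all genes -0.04), and without the first 79 were lower with -0.39 (all genes -0.38). After median centring the value was -0.08, with 57 lower.

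Ndufa2 again had the smallest p here, 0.250 ± 0.0119 with vehicle and 0.110 ± 0.0127 with PGE2 (SD, n = 2 each; -0.87 ± 0.21, SE, adjusted p = 0.364). Both PGE2 libraries of Ndufa2 were low, unlike those of Uqcr10, a small subunit of complex III. Uqcr10 scored 0.249 and 0.233 with vehicle and 0.206 and 0.0734 with PGE2 (-0.68 ± 0.23, adjusted p = 0.501), and the value of 0.0734 belongs to the library that stands apart. Without the first PGE2 library Uqcr10 was the only member interval to pass, at -1.19 ± 0.20 (adjusted p = 0.0111, limma; 0.105% of all intervals passed). Ndufb2 had -0.60 ± 0.21, while Atp5o (0.51 ± 0.21), Ndufaf5 (1.01 ± 0.46) and Sdhaf3 (0.68 ± 0.33) were higher.

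The AA interaction, the AA effect in KO minus that in WT, had 0 passing member intervals in limma (0% of all), 1 higher (2.27% of all) and 5 lower (1.87%) at an unadjusted p under 0.05. The median over lead intervals was -0.08 with 50 of 88 lower, against -0.07 for all genes. Without the first WT vehicle library it was 0.00 (44 lower; all genes -0.01) and without the second -0.17 (64 lower; -0.13). It was -0.05 without the first KO vehicle library, -0.16 without the second KO AA library, and -0.13 after median centring (61 lower; -0.12). Cox7a2l scored 0.212 ± 0.00738 with vehicle and 0.280 in both AA libraries in WT (SD, n = 2), against 0.240 ± 0.0174 and 0.184 ± 0.0464 in KO (-0.64 ± 0.27, SE, adjusted p = 1.00). An interval near the far end of Sdhaf2 had -1.38 ± 0.50 and Ndufa2 -0.70 ± 0.29. Ndufs5 (0.91 ± 0.42), Sdhaf3 (0.92 ± 0.46) and Ndufab1 (0.62 ± 0.34), the acyl carrier protein, were on the other side.

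The PGE2 interaction likewise had 0 passing member intervals in limma (0% of all), 2 higher (1.88% of all) and 12 lower (4.55%) at an unadjusted p under 0.05. The median was -0.24 with 68 of 88 lower, against -0.19 for all genes, and -0.03 with 46 lower without the second KO PGE2 library (all genes -0.02). It was -0.40 without the first KO PGE2 library, -0.14 without the first WT vehicle library (58 lower; -0.13) and -0.14 after median centring (57 lower; -0.09). Ndufa2 stood first, higher with PGE2 in WT (0.214 ± 0.0138 to 0.281 ± 0.0110) and lower in KO (-1.19 ± 0.29, SE, adjusted p = 0.619, limma). Uqcrc1 (-0.91 ± 0.32) and Ndufs6 (-0.74 ± 0.31) followed. Atp5d (0.94 ± 0.37), Atp5o (0.62 ± 0.30) and Atp5j2 (0.60 ± 0.32) had positive values. The same vehicle libraries enter each of these treatment comparisons.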

How the data were processed

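H3K27ac was measured by CUT&RUN in 12 libraries of mouse intestinal organoids. The authors deposited a signal score per interval and library; per the submitters' processing notes, SEACR and MACS2 were used on mm10. For the aligner, the settings and the normalization the sources used here give nothing, and the depth is unknown. Rows named EP4KO were read as Ptger4 KO. SEACR intervals were used, and interval coordinates stand as deposited.

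Scores were analysed as log2(score + 0.0579), the 10th percentile of non-zero scores. Intervals above it in at least 2 libraries (166471) entered limma 3.58.1 (R 4.3.3; 6 group means, trend, two-sided), with Benjamini-Hochberg adjustment over all intervals and a threshold of 0.05. The log2 scale with this pseudocount understates changes of low scores. The procedure was tested on simulated data.

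Genes named were the 3 highest and 2 lowest per complex, the 3 smallest p-values per direction and comparison, every interval that passed, and the isoform pairs and catalytic core; other genes of the same lists were named after their values were seen. The members and lists were chosen with earlier results of these data known. Values of 1 gene are not reported here, although counts and medians over the genes include it. The H3K27me3 and H3K4me3 profiles were not analysed here. Alternatives changed the scaling, filter, pseudocount, trend, replicate block and each library in turn.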

Additional observations from a re-analysis of the deposited data

Results flagged for a closer look

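The second KO library with PGE2 stood apart from the other 5 KO libraries in the gap it left to its nearest neighbour. Its median lead score was 0.116 over the 88 respiratory chain genes, 0.111 over complex I and 0.108 over the assembly factors. The same library had 0.113 over all autosomal protein-coding genes, so the low level was not limited to the respiratory chain. Of 18 groups of values examined 4 stood out in this way, and all 4 are readings of this library. The flag over the 88 genes was borderline. The groups share genes and libraries, so their count cannot be set against the chance rate of about 1 in 20. The 4 flags describe 1 low library and are not separate findings.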

How the results depend on the processing

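The depth of the libraries is unknown, and 2 libraries a group limit what could be called. Leaving out each library in turn gave 0 to 5 passing member intervals for the genotype and 0 to 1 for KO PGE2; the highest counts came without the first KO PGE2 library. Medians over the 88 genes ranged from -0.395 to -0.0157 for KO PGE2 and from -0.397 to -0.0257 for the PGE2 interaction, with both ends set by the KO PGE2 libraries. KO PGE2 moved to -0.0830 under median centring; the cause was not tested. Of the 42 intervals followed, 0 reversed in 828 alternatives. These alternatives reuse the same libraries, so the count is no separate support for the intervals. Without KO PGE2 replicate 2 the genotype median was -0.13, within a range of -0.28 to -0.13 over left-out libraries.

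Libraries with the same replicate number showed no shared deviation: over 15 pairs of groups the correlation of deviations ranged from -0.024 to 0.0097, with 0 over 0.1. Noise in single intervals could hide a shared part, so whether the numbers mark pairs is not settled. With the replicate block 0 member intervals passed in any of the 7 comparisons, and 33 were lower in KO at an unadjusted p under 0.05.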
